A study of Mus musculus with 16 samples.

Results

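The 67 genes described here are the ligands and receptors of the 4 classical axon guidance systems. They are the loci of the deposited tables that carry a single name of the ephrin, Eph receptor, semaphorin, plexin, neuropilin, Slit, Robo, netrin or Unc5 families, or are Dcc or Neo1. They were taken by name alone, from 28432 loci in all, of which 23282 had a single or joint name and a usable value. They comprise 33 ligands (7 ephrins, 20 semaphorins, 3 Slits and 3 netrins) and 34 receptors (14 Eph receptors, 9 plexins, Nrp2, 4 Robos and 6 netrin receptors). Nrp1, Efnb2 and Ntn3 share a locus with another gene in these tables and so fall outside the naming rule.

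RNA was sequenced from embryoid bodies, floating aggregates of mouse embryonic stem cells, at day 6 of SFEBq differentiation, a serum-free method that directs aggregates toward forebrain and retina. Every group was made from Rx:GFP knock-in cells, grown with 5% KSR, and 2% Matrigel was added at day 1. The 4 groups were the T48h rescue and the T12h rescue, in which doxycycline was added to Wdr5 KO cells at T48h or T12h to induce human WDR5, the Wdr5 KO without doxycycline, and untreated WT. The series title names a single KO clone (#3), from which the rescues also derive, so traits of that clone other than Wdr5 loss cannot be told apart from it in comparisons with WT. Doxycycline and human WDR5 cannot be told apart in the rescues. Wdr5 encodes a WD40-repeat subunit of the complexes that methylate histone H3 at lysine 4.

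Guidance cues steer migrating cells and growing axons by attraction or repulsion. Ephrins are held on the cell surface and signal to Eph receptor tyrosine kinases on a neighbouring cell, with reverse signalling into the ephrin cell. Semaphorins act on plexins, and most secreted class 3 semaphorins need a neuropilin as coreceptor. Secreted Slits repel cells through Robo receptors, and secreted netrins attract through Dcc and Neo1 or repel through Unc5 receptors. The same families pattern early tissues, including the optic vesicle, the neural crest, blood vessels and the heart.

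Each group had 2 biological duplicates, called a and b without order, each sequenced in 2 technical runs that were summed. The 8 summed libraries held 32476651 to 65687435 counts in named loci. The labels do not say whether duplicates came from separate cultures, so the p-values reflect no more than the spread of these libraries, and that spread may be technical. Wdr5 itself had 280 and 293.9 CPM (a count relative to the TMM-scaled total of its library) in the T48h rescue, 329 and 336.9 CPM in the T12h rescue, 32.49 and 28.41 CPM in the KO, and 185.7 and 186.5 CPM in WT. Reads of human WDR5 that aligned to the mouse gene would be counted there. All 12 listed eye field and forebrain markers reached 1 CPM in both libraries of the T12h rescue and of WT, with summed levels of 2069 to 2106 CPM in the T12h rescue and 1759 to 1827 CPM in WT. In the other groups 5 of these 12 did so, with sums of 47.3 to 50.9 CPM in the T48h rescue and 135 to 141 CPM in the KO.

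Markers of other cell types differed between the groups as well. The 11 cardiac mesoderm genes found summed to 3061 to 3101 CPM in the T48h rescue, 101 to 116 CPM in the T12h rescue, 235 to 247 CPM in the KO and 101 to 104 CPM in WT. The 12 endothelial genes summed to 953 to 970 CPM in the T48h rescue, 209 to 217 CPM in the T12h rescue, 283 to 309 CPM in the KO and 138 to 148 CPM in WT, with Emcn at 0 in the KO. The 10 fibroblast genes summed to 896 to 965 CPM in the T48h rescue, 102 to 130 CPM in the T12h rescue, 18.97 to 22.1 CPM in the KO and 75.4 to 77.8 CPM in WT, with Fap at 0 in every group but WT. Dcn was also at 0 in the T12h rescue, and S100a4 in WT. Of these 10, 5 reached 1 CPM in both libraries of the T48h rescue and 4 in each other group. The 11 pluripotency genes found stood at 69.1 to 74.9 CPM in the T48h rescue, 202 to 206 CPM in the T12h rescue, 984 to 986 CPM in the KO and 424 to 433 CPM in WT. The 12 neuron genes summed to 45.7 to 50.3 CPM in the T48h rescue, 103 to 107 CPM in the T12h rescue, 188 to 189 CPM in the KO and 111.7 to 111.8 CPM in WT. The KO was highest. The 10 neural crest genes summed to 289 to 322 CPM in the T48h rescue, 127.6 to 128.2 CPM in the T12h rescue, 90.5 to 93.6 CPM in the KO and 110.3 to 115 CPM in WT. The guidance families are used by all of these cell types, and the part of cell composition in the values below was not tested. In bulk RNA, fewer cells of a type and less RNA per cell cannot be told apart.

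The guidance genes were widely expressed at day 6. Both libraries reached 1 CPM for 53 of the 67 genes in the T48h rescue, 56 in the T12h rescue, 51 in the KO and 61 in WT. Both reached 10 CPM for 38 genes in the T48h rescue, 35 in the T12h rescue, 33 in the KO and 40 in WT. The KO held the lowest mean for 30 genes and the highest for 21, while WT held the lowest for 5 and the highest for 13. The T48h rescue held the highest mean for 23 genes and the T12h rescue for 10. These counts were not made over all loci, so they do not set guidance genes apart from other genes. Ntn5 and Plxnb3 had too few counts to be tested, with at most 0.293 CPM for Ntn5 and 0.542 CPM for Plxnb3 in any library, both in the KO.

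**Figure D1:**
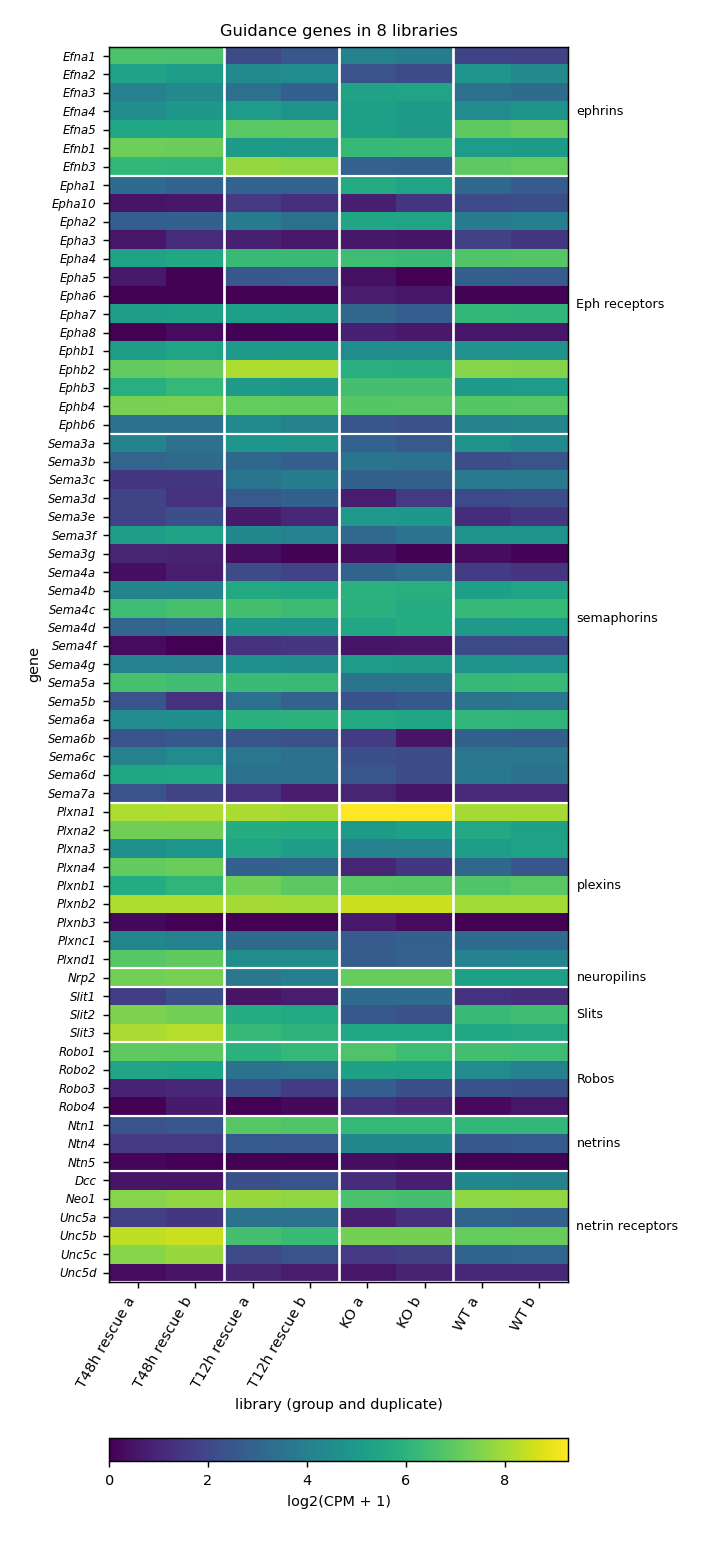
Levels of the 67 guidance genes (rows, by family) in the 8 libraries (columns), as log2(CPM + 1) on the colour scale. Duplicates look alike within each group, and rows such as Unc5c, Plxna4 and Efna1 are brightest in the T48h rescue, whereas Sema3e is bright in the KO.

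Compared per transcript length, as FPKM, some families kept an even sum over the groups and others did not. The 14 Eph receptors together had 90.3 ± 4.92 FPKM in the T48h rescue, 99.1 ± 2.23 FPKM in the T12h rescue, 93.7 ± 2.07 FPKM in the KO and 96.0 ± 0.0902 FPKM in WT (SD, n = 2 each). Single members turned over within that even sum, since Ephb4 was the most abundant Eph receptor by FPKM in the T48h rescue and the KO and Ephb2 in the T12h rescue and WT. The 3 Slits summed to 54.2 ± 2.18 FPKM in the T48h rescue, 14.2 ± 0.847 FPKM in the T12h rescue, 8.37 ± 0.0332 FPKM in the KO and 14.5 ± 0.572 FPKM in WT. The netrins went the other way, with 1.39 ± 0.0261 FPKM in the T48h rescue, 18.3 ± 0.883 FPKM in the T12h rescue, 18.7 ± 0.176 FPKM in the KO and 12.2 ± 0.136 FPKM in WT. Plexins summed highest in the KO, at 130.2 ± 1.07 FPKM, against 80.1 ± 0.123 FPKM in WT, and Plxna1 alone made up 46.5% of that KO sum. Ephrins summed to 168 ± 1.67 FPKM in the T48h rescue, 119.9 ± 7.76 FPKM in the T12h rescue, 85.4 ± 2.34 FPKM in the KO and 97.9 ± 1.74 FPKM in WT, with a different leading ephrin in the T48h rescue (Efna1), the KO (Efna3) and the other groups (Efnb3). The sums are descriptions and were not tested.

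**Figure D2:**
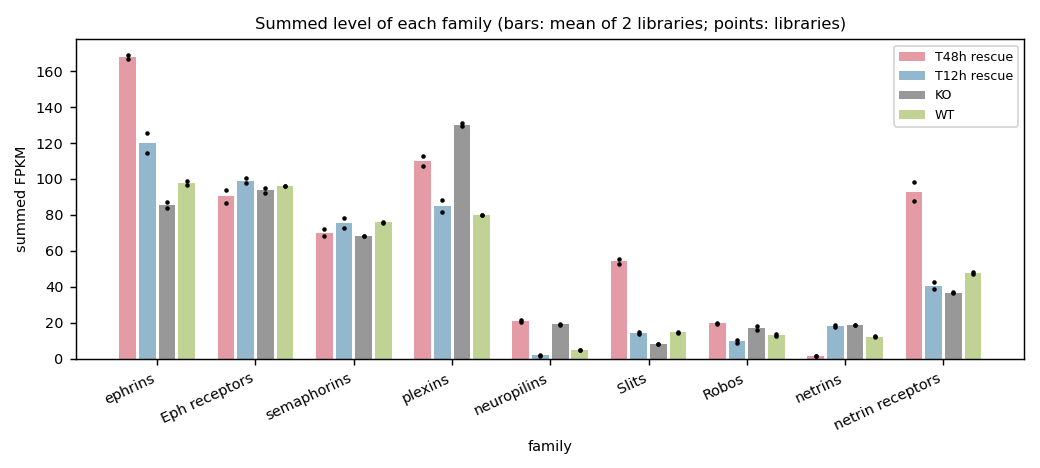
Summed FPKM of each family (vertical axis) in the T48h rescue, T12h rescue, KO and WT, as the mean of 2 libraries (bars) with each library as a point; Nrp2 is the only neuropilin counted. Slits and netrin receptors stand highest and netrins lowest in the T48h rescue, plexins stand highest in the KO, and Eph receptors differ little between groups.

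The first comparison set KO against WT, to ask which guidance genes differ between the Wdr5 KO clone and WT. Of the 65 tested, 21 were higher and 32 lower in the KO at an edgeR adjusted p under 0.05, where 31.7% of all 16130 tested loci were higher and 32.4% lower, or 64.1% in either direction. The median log2 fold change of the guidance genes was -0.41, against 0.00 over all loci. Of the 65, 15 were called and at least 2-fold higher and 27 at least 2-fold lower, as were 17.9% and 15.7% of all loci. Of 32 tested ligands 12 were higher and 16 lower, with a median log2 fold change of -0.48. Of 33 tested receptors 9 were higher and 16 lower, with a median of -0.29.

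Doxycycline from T12h or T48h was compared with the KO to ask how each rescue differed from it. In the T12h rescue against KO, 32 of 65 genes were higher and 23 lower, where 32.8% of all loci were higher and 32.1% lower, and the median was 0.49 against -0.01 over all loci. In the T48h rescue against KO, 31 were higher and 23 lower, where 34.2% of all loci were higher and 33.2% lower, and the median was 0.40 against -0.00 over all loci. Among semaphorins 11 of 20 were higher and 6 lower in T12h rescue against KO, and 8 were higher and 8 lower in T48h rescue against KO. Among Eph receptors 6 of 14 were higher and 5 lower in T12h rescue against KO, and 5 were higher and 6 lower in T48h rescue against KO. Of 8 tested plexins, 5 were higher and 2 lower in T12h rescue against KO, and 5 were higher and 3 lower in T48h rescue against KO. These comparisons share the KO libraries with each other and with the comparison of KO with WT, so their values are given side by side and not as separate evidence. Fold changes below are log2 values ± SE from edgeR's quasi-likelihood test.

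**Figure D3:**
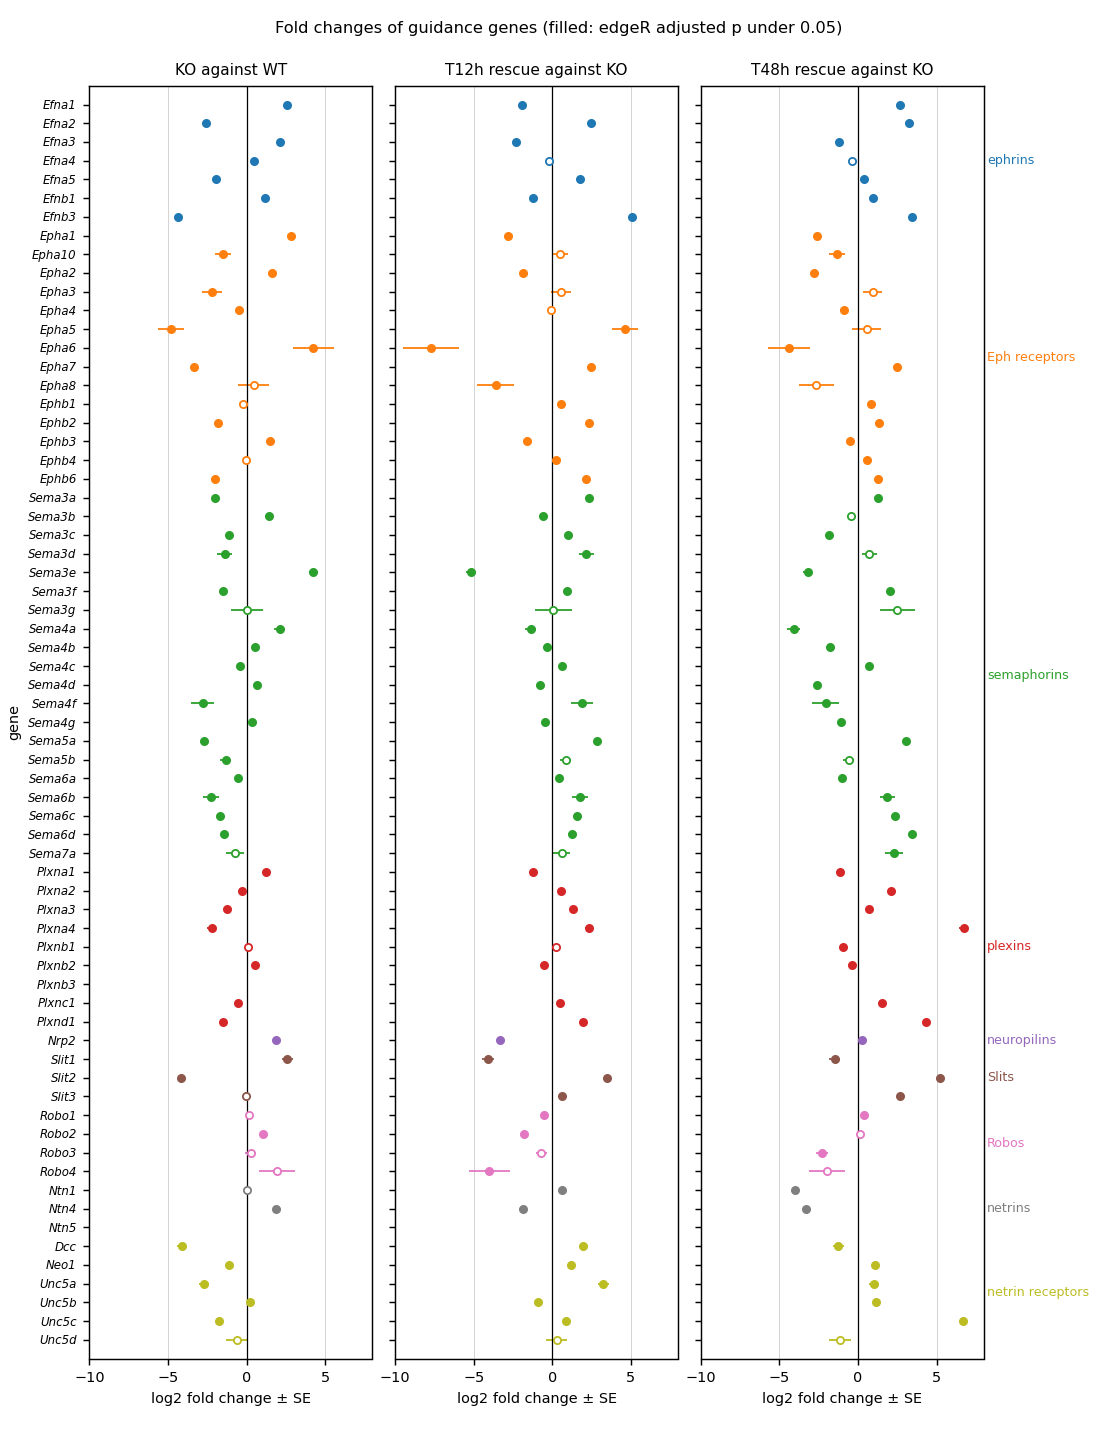
Log2 fold change ± SE (horizontal axis) of each tested guidance gene (rows, coloured by family) in KO against WT, T12h rescue against KO and T48h rescue against KO; filled points passed an edgeR adjusted p under 0.05, and untested genes have no point. Efnb3, Slit2 and Sema3e lie far from 0 in all 3 panels, and Unc5c and Plxna4 lie farthest right in the T48h rescue panel; the fitted value of Epha6 rests on a group without counts and is not a measured size.

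The promoters of 3 genes that moved most among those at 20 CPM or more are shown, from 250 bases before to 50 bases after the RefSeq transcription start on GRCm38.p6. They belong to Sema3e, the largest rise in KO against WT, Slit2, the largest fall there with an entry, and Unc5c, the largest rise in T48h rescue against KO with an entry. Capitals mark the GC box (GGGCGG, or CCGCCC on the other strand), the TATA box (TATAAA) and the Myc-type E-box (CACGTG).
Sema3e, chr5:14025026-14025325, plus strand: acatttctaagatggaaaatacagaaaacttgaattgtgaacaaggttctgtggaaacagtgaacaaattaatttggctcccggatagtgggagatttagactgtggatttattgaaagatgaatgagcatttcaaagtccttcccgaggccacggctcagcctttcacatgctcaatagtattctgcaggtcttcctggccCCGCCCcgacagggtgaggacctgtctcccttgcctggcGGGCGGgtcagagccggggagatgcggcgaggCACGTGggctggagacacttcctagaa
Slit2, chr5:47982905-47983204, plus strand: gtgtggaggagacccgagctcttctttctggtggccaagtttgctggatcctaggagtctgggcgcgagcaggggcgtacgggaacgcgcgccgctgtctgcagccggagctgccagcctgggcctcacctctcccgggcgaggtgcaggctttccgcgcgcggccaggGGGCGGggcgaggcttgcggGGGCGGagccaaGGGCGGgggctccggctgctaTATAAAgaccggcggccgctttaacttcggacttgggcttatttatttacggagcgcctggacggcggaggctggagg
Unc5c, chr3:141465314-141465613, plus strand: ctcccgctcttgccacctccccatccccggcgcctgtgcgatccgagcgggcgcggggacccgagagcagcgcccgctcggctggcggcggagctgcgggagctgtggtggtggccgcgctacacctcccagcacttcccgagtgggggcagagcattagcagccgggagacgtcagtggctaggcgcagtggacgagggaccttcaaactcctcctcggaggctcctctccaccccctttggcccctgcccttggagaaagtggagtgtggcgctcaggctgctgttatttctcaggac
Slit2 held a run of GC boxes beside a TATA box, Sema3e held GC boxes and an E-box, and none of these motifs occurred in the Unc5c window, whose RefSeq start lies 356 bases from the start of the deposited locus. Of the 57 guidance genes with an entry, 70.2% held a GC box on either strand, against 35.7% of 32851 promoters of the same length, and 1.75% held TATAAA, which is Slit2 alone, against 13.6%. A CCAAT box stood in 29.8%, against 37.4% of all promoters, and CACGTG in 3.51% against 7.15%. The median number of CG dinucleotides was 23 in guidance promoters and 7 in all promoters. A match is a description of the letters and not a binding site.

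Ephrins split by member. Efnb3 (chromosome 11, 69554091 to 69560237 on mm10), a transmembrane ephrin known as a midline barrier to crossing axons, had 69.6 and 68.6 CPM in the T48h rescue, 225 and 205 in the T12h rescue, 6.55 and 6.12 in the KO, and 126 and 136 in WT. Both KO libraries lay far below the other 6 and no groups overlapped. The change was -4.37 ± 0.10 (edgeR adjusted p = 1.98e-12) in KO against WT, 5.08 ± 0.10 (adjusted p = 6.29e-13) in T12h rescue against KO and 3.44 ± 0.09 (adjusted p = 7.22e-12) in T48h rescue against KO. Efna5, a GPI-anchored ephrin that sets up retinal axon maps, had 45.3 and 45.7 CPM in the T48h rescue, 118 and 121 in the T12h rescue, 37.6 and 32.2 in the KO, and 125 and 141 in WT. The T12h rescue and WT were high and the T48h rescue and KO low, with -1.93 ± 0.10 in KO against WT, 1.78 ± 0.09 in T12h rescue against KO and 0.38 ± 0.09 in T48h rescue against KO (edgeR adjusted p = 1.69e-09, 3.16e-09 and 0.00305). Efna2 followed Efnb3 in direction in these 3 comparisons, but its locus spans 47 other named loci, so its value is uncertain.

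Other ephrins were higher in the KO than in WT. Efna1 (chromosome 3, 89271729 to 89280951), a GPI-anchored ephrin with a role in vessel growth, had 98.3 and 96.3 CPM in the T48h rescue, 3.44 and 4.67 in the T12h rescue, 15.8 and 14.3 in the KO, and 2.66 and 2.43 in WT. The T48h rescue stood far above every other library, and the KO came next. Its change was 2.57 ± 0.17 (edgeR adjusted p = 2.1e-08) in KO against WT, -1.90 ± 0.15 (adjusted p = 1.6e-07) in T12h rescue against KO and 2.69 ± 0.14 (adjusted p = 2.81e-09) in T48h rescue against KO. Efnb1, a transmembrane ephrin needed for craniofacial and neural crest development, had 147 and 146 CPM in the T48h rescue, 32.1 and 30.7 in the T12h rescue, 72.7 and 76.1 in the KO, and 34.2 and 32.6 in WT. The T48h rescue was again highest and the KO second, with 1.15 ± 0.08 in KO against WT, -1.24 ± 0.08 in T12h rescue against KO and 0.98 ± 0.08 in T48h rescue against KO (edgeR adjusted p = 5.2e-08, 2.24e-08 and 1.61e-07). Efna3 was instead highest in the KO, with 15.3 and 19.7 CPM in the T48h rescue, 9.74 and 6.41 in the T12h rescue, 39.6 and 41.3 in the KO, and 9.68 and 8.81 in WT.

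Efna1, Efna3 and Efna4 form a cluster on chromosome 3, with 33073 bases between the first pair and 10513 bases between the second. The cluster did not move as a block in the T48h rescue against KO, where Efna1 rose by 2.69 ± 0.14, Efna3 had -1.21 ± 0.19 (edgeR adjusted p = 9.32e-05) and Efna4 had -0.39 ± 0.17 (adjusted p = 0.0544). Efna4 had 22.4 and 29.9 CPM in the T48h rescue, 32.9 and 26.8 in the T12h rescue, 36.3 and 31.9 in the KO, and 21.8 and 26.8 in WT, and its groups stood close together.

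Among Eph receptors, 4 were higher and 7 lower of 14 in KO against WT, beside 31.7% and 32.4% of all loci. Ephb2, a receptor for B-type ephrins with a role in axon crossing and retinal patterning, had 129.8 and 143 CPM in the T48h rescue, 279.8 and 277 in the T12h rescue, 56.3 and 53.3 in the KO, and 194 and 188 in WT. Its KO libraries were lowest and its T12h rescue libraries highest without overlap. The change was -1.80 ± 0.08 (edgeR adjusted p = 3.82e-10) in KO against WT, 2.34 ± 0.08 (adjusted p = 3.63e-11) in T12h rescue against KO and 1.32 ± 0.08 (adjusted p = 5.43e-09) in T48h rescue against KO. Epha7, an A-type receptor of the developing forebrain, had 35.4 and 37.2 CPM in the T48h rescue, 36.5 and 36.1 in the T12h rescue, 7.26 and 5.83 in the KO, and 69.3 and 68.2 in WT. Both rescues stood between KO and WT, by 2.46 ± 0.13 in T12h rescue against KO and 2.46 ± 0.13 in T48h rescue against KO (edgeR adjusted p = 1.98e-09 and 1.86e-09). Ephb6, which lacks kinase activity, was also lowest in the KO, with -2.01 ± 0.18 against WT (edgeR adjusted p = 5.2e-07).

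Epha1, Epha2 and Ephb3 moved the other way and were highest in the KO. Epha2, a receptor of early embryonic and epithelial cells, had 5.88 and 6.4 CPM in the T48h rescue, 13.5 and 9.72 in the T12h rescue, 42.7 and 41.4 in the KO, and 12.7 and 14.9 in WT. The KO libraries were clear of all others, and the T48h rescue was lowest. The change of Epha2 was 1.61 ± 0.17 in KO against WT, -1.86 ± 0.17 in T12h rescue against KO and -2.77 ± 0.18 in T48h rescue against KO (edgeR adjusted p = 2.69e-06, 6.57e-07 and 1.95e-08). Epha1 was 2.82 ± 0.21 higher in KO than WT on the log2 scale (edgeR adjusted p = 6.83e-08), although its locus overlaps another named locus, and the strand setting is not given in the sources used here. Ephb3, another B-type receptor, had 57 and 71.1 CPM in the T48h rescue, 31.5 and 29 in the T12h rescue, 91.1 and 91.2 in the KO, and 30.2 and 33.8 in WT, so that the KO stood highest and the T48h rescue second. Ephb4, a receptor of venous endothelium, was higher in the T48h rescue than in the KO by 0.56 ± 0.07 (edgeR adjusted p = 9.03e-06), and did not pass in KO against WT, at -0.02 ± 0.07 (adjusted p = 0.834).

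Several Eph receptors were near the limit of detection. Epha6 had 2 counts in the T48h rescue, 0 in the T12h rescue, 65 in the KO and 2 in WT. The ratio of KO to WT was 21.5 (95% counting interval 5.72 to 181). Against the 0 counts of the T12h rescue, a floor of 3 counts over the group gave a ratio of 20.4. The lower 95% counting limit of that ratio was 16.2. The calls of Epha6 in KO against WT and in T48h rescue against KO were each lost when 1 library was left out. Epha5 had 0.545 and 0.049 CPM in the T48h rescue, 4.66 and 5.38 in the T12h rescue, 0.337 and 0 in the KO, and 5.99 and 5.28 in WT, so both the T12h rescue and WT were above the KO, whose libraries differed from each other. Intervals and floors cover counting error only.

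Semaphorins formed the largest family and moved in both directions. In KO against WT 6 of 20 were higher and 12 lower, beside 31.7% and 32.4% of all loci. The 6 that were higher comprised Sema3b, Sema3e and 4 of the 6 class 4 members, and every tested class 5 and class 6 member was lower. Sema3e (chromosome 5, 14025275 to 14256689), a secreted semaphorin that binds plexin D1 without a neuropilin, had 2.72 and 3.75 CPM in the T48h rescue, 0.611 and 1.06 in the T12h rescue, 30.4 and 29.6 in the KO, and 1.33 and 1.87 in WT. Both KO libraries were far above the other 6. Its change was 4.23 ± 0.28 (edgeR adjusted p = 2.85e-08) in KO against WT, -5.18 ± 0.30 (adjusted p = 6.08e-09) in T12h rescue against KO and -3.21 ± 0.26 (adjusted p = 1.64e-07) in T48h rescue against KO.

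Sema5a, a transmembrane semaphorin with thrombospondin repeats, had 93.6 and 85.5 CPM in the T48h rescue, 80.0 and 76.5 in the T12h rescue, 11 and 10.9 in the KO, and 71.3 and 74.2 in WT. The KO was low and the other 3 groups stood close together. The change was -2.73 ± 0.09 (edgeR adjusted p = 6.19e-11) in KO against WT, 2.84 ± 0.09 (adjusted p = 3.67e-11) in T12h rescue against KO and 3.03 ± 0.09 (adjusted p = 2.16e-11) in T48h rescue against KO. Sema6d, a transmembrane ligand of plexin A1 with a role in heart looping in the chick, had 43.7 and 45.6 CPM in the T48h rescue, 9.72 and 9.89 in the T12h rescue, 4.74 and 3.43 in the KO, and 12.5 and 10.4 in WT. The T48h rescue stood highest, by 3.43 ± 0.19 against KO (edgeR adjusted p = 3.1e-09).

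Of the 6 class 4 semaphorins, 5 were lower in the T48h rescue than in the KO, beside 33.2% of all loci. Among the 5 was Sema4f, which was near the limit of detection. It had 0.218 and 0 CPM in the T48h rescue and 0.439 and 0.459 CPM in the KO. Its call was lost when 1 library was left out. Sema4d, a ligand of plexin B1, had 7.22 and 8.48 CPM in the T48h rescue, 28.3 and 27.4 in the T12h rescue, 45.9 and 52 in the KO, and 31.2 and 31.8 in WT. The T48h rescue was below all other libraries and the KO above them. Its change was 0.63 ± 0.12 (edgeR adjusted p = 0.000556) in KO against WT, -0.81 ± 0.12 (adjusted p = 6.72e-05) in T12h rescue against KO and -2.64 ± 0.13 (adjusted p = 1.81e-09) in T48h rescue against KO. Sema4b was also lowest in the T48h rescue, at -1.76 ± 0.11 in T48h rescue against KO (edgeR adjusted p = 1.46e-08). Sema4c was the exception, with 82.1 and 94.1 CPM in the T48h rescue, 91.2 and 81.3 in the T12h rescue, 58.6 and 51.6 in the KO, and 73.3 and 73.7 in WT, and was the most abundant semaphorin by FPKM in the T48h rescue, the T12h rescue and WT.

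Of the 6 class 3 semaphorins other than Sema3e, 4 were lower in the KO than in WT, Sema3b was higher and Sema3g did not pass. Of all loci, 32.4% were lower and 31.7% higher. Sema3a, a repellent for sensory and motor axons, had 17.1 and 10.2 CPM in the T48h rescue, 28 and 29 in the T12h rescue, 6.49 and 4.96 in the KO, and 25.7 and 20.1 in WT. Its KO libraries were lowest, with -1.99 ± 0.23 (edgeR adjusted p = 6.81e-06) against WT. Sema3f, which signals through Nrp2, had 35.5 and 39.7 CPM in the T48h rescue, 19.2 and 15.9 in the T12h rescue, 7.99 and 10.5 in the KO, and 25.3 and 26 in WT. The KO was lowest and the T48h rescue highest, with -1.48 ± 0.16 in KO against WT, 0.93 ± 0.16 in T12h rescue against KO and 2.03 ± 0.16 in T48h rescue against KO (edgeR adjusted p = 3.81e-06, 0.000228 and 1.59e-07). Sema3c had 1.77 and 1.76 CPM in the T48h rescue, 11 and 14.1 in the T12h rescue, 6.41 and 6.21 in the KO, and 13.6 and 13.4 in WT, and here the T48h rescue was lowest.

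Nrp2 (chromosome 1, 62703316 to 62818692), the coreceptor of Sema3f and of VEGF-C, had 157 and 166 CPM in the T48h rescue, 11.8 and 15 in the T12h rescue, 136 and 136 in the KO, and 37.2 and 37.9 in WT. The T48h rescue and the KO were high and the T12h rescue was below WT. The change was 1.86 ± 0.10 (edgeR adjusted p = 3.54e-09) in KO against WT and -3.35 ± 0.11 (adjusted p = 2.83e-11) in T12h rescue against KO. The difference of 0.24 ± 0.09 (edgeR adjusted p = 0.0362) between T48h rescue and KO lost its call under 13 of 17 alternatives, with an adjusted p of 0.181 without KO a, 0.0993 without KO b, 0.0779 without T48h rescue a, 0.153 without T48h rescue b, 0.101 without WT a and 0.075 without WT b. The related Nrp1 could be read only as a joint locus with Mir1903 on chromosome 8, which had 1238 and 1299.5 CPM in the T48h rescue, 12.3 and 13.2 CPM in the T12h rescue, 58.1 and 58.1 CPM in the KO, and 11.7 and 12.9 CPM in WT. That locus rose by 4.45 ± 0.08 in T48h rescue against KO (edgeR adjusted p = 6.18e-13) and by 2.24 ± 0.08 in KO against WT (adjusted p = 8.69e-11). Both neuropilin loci were high in the T48h rescue, but Nrp2 was nearly as high in the KO. Whether either level goes with the endothelial or cardiac markers was not tested.

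Plexins, the signalling receptors of semaphorins, diverged within the family. Plxna1 (chromosome 6, 89316313 to 89362613), a receptor for class 3 and class 6 semaphorins, had 281 and 288 CPM in the T48h rescue, 272 and 261 in the T12h rescue, 619 and 617 in the KO, and 263 and 259.8 in WT. Both KO libraries lay far above the other 6, whose 3 groups stood close together. Its change was 1.24 ± 0.06 (edgeR adjusted p = 2.26e-09) in KO against WT, -1.21 ± 0.06 (adjusted p = 2.54e-09) in T12h rescue against KO and -1.12 ± 0.06 (adjusted p = 4.79e-09) in T48h rescue against KO. Plxnb2, the other abundant plexin, was also highest in the KO, by 0.53 ± 0.06 against WT (edgeR adjusted p = 7.35e-06).

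Plxna4 (chromosome 6, 32144556 to 32588192), the partner of Nrp1 in the response to Sema3a, had 131 and 144 CPM in the T48h rescue, 6.11 and 7.03 in the T12h rescue, 0.952 and 1.83 in the KO, and 7.54 and 4.63 in WT. The T48h rescue was high and the KO lowest. The change was -2.22 ± 0.27 (edgeR adjusted p = 1.02e-05) in KO against WT, 2.32 ± 0.27 (adjusted p = 5.05e-06) in T12h rescue against KO and 6.72 ± 0.27 (adjusted p = 1.67e-10) in T48h rescue against KO. Plxnd1, the endothelial receptor of Sema3e, had 115 and 127 CPM in the T48h rescue, 23.2 and 22.4 in the T12h rescue, 5.58 and 6.53 in the KO, and 16.3 and 17.3 in WT. Its order was T48h rescue, T12h rescue, WT and KO, without overlap, and its KO level was low where its ligand Sema3e was high. The change of Plxnd1 was -1.48 ± 0.12 in KO against WT, 1.92 ± 0.12 in T12h rescue against KO and 4.33 ± 0.12 in T48h rescue against KO (edgeR adjusted p = 1.93e-07, 1.27e-08 and 1.06e-11). Plxna2 had 152 and 154 CPM in the T48h rescue, 52.3 and 50.4 in the T12h rescue, 32.3 and 38.3 in the KO, and 47.7 and 38.2 in WT and rose by 2.12 ± 0.11 in T48h rescue against KO (edgeR adjusted p = 2.88e-09). Plxnb1, the receptor of Sema4d, was lower in the T48h rescue than in the KO, at -0.98 ± 0.12 (edgeR adjusted p = 8.59e-06), and did not pass in KO against WT, at 0.05 ± 0.12 (adjusted p = 0.714).

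The 3 Slits did not move together. Slit2 (chromosome 5, 47983116 to 48307242), a midline repellent, had 173 and 159 CPM in the T48h rescue, 52.9 and 48 in the T12h rescue, 4.92 and 3.88 in the KO, and 76.6 and 84.6 in WT. No groups overlapped, and the KO was lowest and the T48h rescue highest. The change was -4.17 ± 0.12 (edgeR adjusted p = 1.9e-11) in KO against WT, 3.49 ± 0.12 (adjusted p = 5.57e-11) in T12h rescue against KO and 5.21 ± 0.13 (adjusted p = 4e-12) in T48h rescue against KO. Slit3 (chromosome 11, 35121098 to 35712025), which is also made in heart and diaphragm, had 274 and 302 CPM in the T48h rescue, 72.7 and 65.1 in the T12h rescue, 44.6 and 44.9 in the KO, and 45.1 and 47.7 in WT. The KO and WT were level, at -0.05 ± 0.08 (edgeR adjusted p = 0.61), whereas the T48h rescue rose by 2.69 ± 0.09 (adjusted p = 3.06e-11) against KO. Slit1, the neural member, had 2.29 and 3.77 CPM in the T48h rescue, 0.389 and 0.617 in the T12h rescue, 8.51 and 8.44 in the KO, and 1.58 and 1.25 in WT, so that it was highest in the KO. The loci of Slit2 and Slit3 each contain a microRNA gene.

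The Robo receptors had 1 member higher, Robo2, and 0 lower of 4 in KO against WT, beside 31.7% and 32.4% of all loci. Robo1 had 125 and 123 CPM in the T48h rescue, 61 and 70.5 in the T12h rescue, 104 and 84.2 in the KO, and 88.2 and 83.1 in WT. The T12h rescue was lowest and the T48h rescue highest, while KO and WT overlapped. The change was -0.52 ± 0.10 (edgeR adjusted p = 0.000678) in T12h rescue against KO and 0.40 ± 0.10 (adjusted p = 0.00408) in T48h rescue against KO, where the second lost its call without 1 library, with an adjusted p of 0.055 without KO b. Robo2 had 42.2 and 40.7 CPM in the T48h rescue, 10.4 and 11.5 in the T12h rescue, 38.4 and 36.5 in the KO, and 21.3 and 15.8 in WT. The T48h rescue and KO were high, with 1.01 ± 0.15 (edgeR adjusted p = 4.56e-05) in KO against WT, -1.78 ± 0.15 (adjusted p = 2.61e-07) in T12h rescue against KO and 0.15 ± 0.14 (adjusted p = 0.382) in T48h rescue against KO. Robo3, the commissural member, and Robo4, an endothelial member that lies 2022 bases from it on chromosome 9, stayed below 6 CPM in all libraries. Robo4 had 0.0272 and 0.588 CPM in the T48h rescue, 0 and 0.154 in the T12h rescue, 1.41 and 1.03 in the KO, and 0.166 and 0.475 in WT, and it did not share the high T48h level of the endothelial marker list.

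Netrins and some of their receptors separated the rescues from each other. In T48h rescue against T12h rescue both tested netrins were lower, where 25.3% of all loci were. Of 6 netrin receptors 2 were higher and 2 lower, where 24.9% and 25.3% of all loci were. Neo1, at -0.14 ± 0.08 (edgeR adjusted p = 0.165), and Unc5d did not pass. Ntn1 (chromosome 11, 68209363 to 68386826), the founding secreted attractant, had 4.17 and 4.78 CPM in the T48h rescue, 115 and 107 in the T12h rescue, 71.7 and 72.3 in the KO, and 70.4 and 68.8 in WT. KO and WT were close, the T12h rescue was higher and the T48h rescue fell far below all of them. The change was 0.05 ± 0.09 (edgeR adjusted p = 0.633) in KO against WT, 0.62 ± 0.09 (adjusted p = 2.64e-05) in T12h rescue against KO and -4.01 ± 0.11 (adjusted p = 5.62e-12) in T48h rescue against KO. Ntn4, a netrin that binds laminin in basement membranes, had 1.91 and 1.89 CPM in the T48h rescue, 5.22 and 5 in the T12h rescue, 18.6 and 18.6 in the KO, and 4.83 and 5.22 in WT, so the KO was highest and the T48h rescue lowest. Its change was 1.89 ± 0.19 in KO against WT, -1.86 ± 0.19 in T12h rescue against KO and -3.29 ± 0.21 in T48h rescue against KO (edgeR adjusted p = 1.96e-06, 1.95e-06 and 1.59e-08).

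Dcc, the attractive netrin receptor, had 0.409 and 0.441 CPM in the T48h rescue, 3.79 and 4.21 in the T12h rescue, 1.26 and 0.728 in the KO, and 19.2 and 16.9 in WT. WT stood above every other group and the T12h rescue came second. The change was -4.14 ± 0.30 (edgeR adjusted p = 5.47e-08) in KO against WT and 1.97 ± 0.28 (adjusted p = 4.33e-05) in T12h rescue against KO, whereas -1.26 ± 0.34 (adjusted p = 0.00552) in T48h rescue against KO lost its call without 1 library, with an adjusted p of 0.0722 without KO a. Neo1, its more broadly expressed relative and a receptor for RGM proteins, had 189.7 and 213 CPM in the T48h rescue, 229 and 214 in the T12h rescue, 98 and 92.5 in the KO, and 205 and 212 in WT. Only the KO was low, by -1.13 ± 0.08 (edgeR adjusted p = 4.49e-08) against WT. Per length, Neo1 reached 23.2 ± 1.88 FPKM in the T48h rescue, 25.6 ± 1.3 FPKM in the T12h rescue, 11.6 ± 0.391 FPKM in the KO and 24.1 ± 0.417 FPKM in WT (SD, n = 2 each), while Dcc reached 0.0343 ± 0.0018 FPKM in the T48h rescue, 0.324 ± 0.0215 FPKM in the T12h rescue, 0.0848 ± 0.0311 FPKM in the KO and 1.47 ± 0.135 FPKM in WT, so Neo1 was the more abundant of the 2 netrin attractant receptors in each group.

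Unc5c (chromosome 3, 141465208 to 141834925), a repulsive netrin receptor, had 190.4 and 228 CPM in the T48h rescue, 3.16 and 4.3 in the T12h rescue, 1.87 and 2.35 in the KO, and 6.96 and 7.24 in WT. The T48h rescue was high and all other libraries were below 8 CPM. The change was -1.78 ± 0.18 (edgeR adjusted p = 1.23e-06) in KO against WT and 6.66 ± 0.17 (adjusted p = 4.81e-12) in T48h rescue against KO, and the smaller 0.84 ± 0.18 (adjusted p = 0.0012) in T12h rescue against KO was not called with only the 2 groups in the fit or with limma on FPKM. Unc5b, a receptor of arterial endothelium, had 334 and 370.2 CPM in the T48h rescue, 91.2 and 77.8 in the T12h rescue, 159 and 162 in the KO, and 134 and 139 in WT. The T48h rescue was highest and the T12h rescue lowest, by 1.13 ± 0.09 (edgeR adjusted p = 7.88e-08) and -0.92 ± 0.09 (adjusted p = 6.98e-07) against KO. Its difference of 0.23 ± 0.09 (edgeR adjusted p = 0.029) between KO and WT was lost when any of those 4 libraries was left out, with an adjusted p of 0.104 without KO a, 0.129 without KO b, 0.151 without WT a and 0.102 without WT b. Unc5a, the neuronal member, was lowest in the KO, with 2.37 and 1.76 CPM in the T48h rescue, 9.88 and 9.6 in the T12h rescue, 0.703 and 1.4 in the KO, and 6.99 and 6.38 in WT, and its locus overlaps Hk3. Unc5d, the only guidance gene on chromosome 8 with a locus of its own, passed in none of the 6 comparisons (edgeR) and had 0.218 and 0.392 CPM in the T48h rescue, 0.981 and 0.683 in the T12h rescue, 0.483 and 0.917 in the KO, and 1.11 and 1.04 in WT. Chromosome 8 as a whole was shifted, with a median of 0.49 over its 852 tested loci in KO against WT. The median was 0.49 in T12h rescue against WT and 0.39 in T48h rescue against WT. The joint loci of Nrp1 and Efnb2 also lie on chromosome 8, and the part of this shift in their values against WT was not tested.

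**Figure D4:**
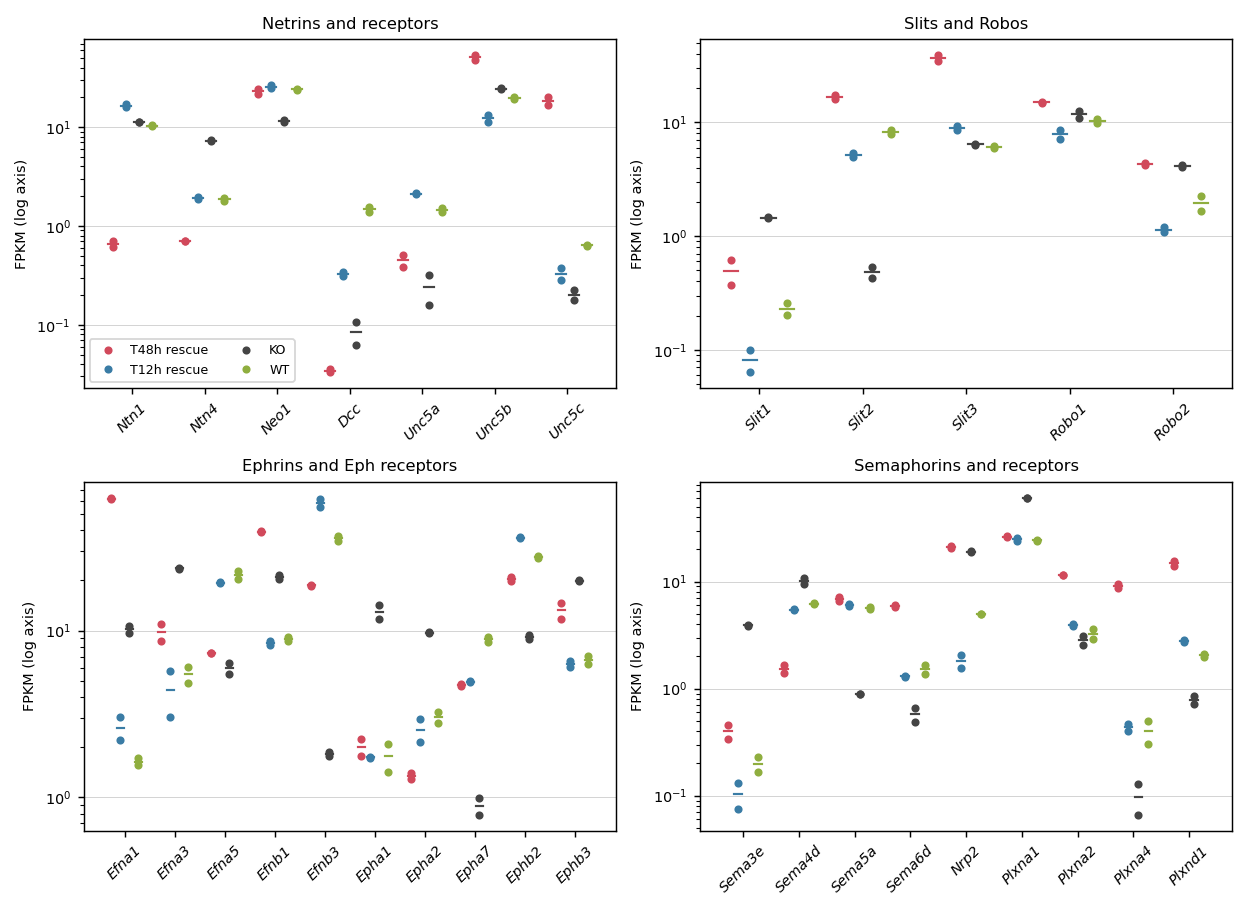
FPKM (log axis) of selected ligands and their receptors in the T48h rescue, T12h rescue, KO and WT, with each library as a point and the group mean as a line. Ntn1 is lowest in the T48h rescue where Unc5b and Unc5c are highest, Slit2 and Slit3 are highest there, and Sema3e is highest in the KO where Plxnd1 is lowest.

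The T12h rescue was next compared with WT to ask how closely early WDR5 return approached the WT pattern. Of 65 tested genes 7 were higher and 11 lower, where 7.9% of all loci were higher and 6.11% lower, and the count of all guidance genes called was 27.7% against 14% of all loci. No called gene was higher by 2-fold, where 0.812% of all loci were. Nrp2, Dcc and Slit1, 3 in all, were lower by 2-fold, where 2.5% of all loci were. Nrp2 had 11.8 and 15 CPM in the T12h rescue, against 37.2 and 37.9 CPM in WT, a change of -1.49 ± 0.10 (edgeR adjusted p = 3.43e-06). Dcc had 3.79 and 4.21 CPM in the T12h rescue, against 19.2 and 16.9 CPM in WT, a change of -2.18 ± 0.26 (edgeR adjusted p = 0.000149). Among receptors 2 were higher and 8 lower, the lower ones including Epha7 at -0.92 ± 0.11 (edgeR adjusted p = 0.000171), Epha4 at -0.55 ± 0.09 (adjusted p = 0.00105) and Unc5b at -0.69 ± 0.09 (adjusted p = 0.000176). Among ligands 5 were higher and 3 lower, with Efnb3 at 0.71 ± 0.08 (edgeR adjusted p = 8.2e-05), Ntn1 at 0.67 ± 0.09 (adjusted p = 0.000205) and Slit3 at 0.57 ± 0.08 (adjusted p = 0.000603) higher and Slit2 at -0.68 ± 0.10 (adjusted p = 0.000695) lower. Of these 18 calls, 7 were lost when 1 library was left out, among them those of Slit1, with an edgeR adjusted p of 0.178 without T12h rescue a and 0.16 without WT a, and of Robo2, at 0.0755 without WT a. The call of Robo1 was lost as well, at 0.223 without T12h rescue a, 0.171 without WT a and 0.0516 without WT b, and that of Efna1 at 0.201 without T12h rescue b, 0.0871 without WT a and 0.131 without WT b. No semaphorin or plexin passed except Sema3b, Sema3f and Plxnd1, each of which lost its call without at least 1 library; the adjusted p was 0.126 without T12h rescue a, 0.0727 without T12h rescue b, 0.162 without WT a and 0.0658 without WT b for Plxnd1, 0.286 without T12h rescue a, 0.221 without WT a and 0.0972 without WT b for Sema3b, and 0.0631 without T12h rescue a, 0.255 without T12h rescue b, 0.153 without WT a and 0.144 without WT b for Sema3f.

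The T48h rescue differed from WT in 53 of 65 genes, 28 higher and 25 lower, where 23.9% of all loci were higher and 23.4% lower. A 2-fold difference was seen for 17 in each direction, where 9.47% of all loci were at least 2-fold higher and 12.4% at least 2-fold lower. The largest rises were those of Efna1 at 5.25 ± 0.17 (edgeR adjusted p = 3.45e-11), Unc5c at 4.88 ± 0.15 (adjusted p = 2.08e-11) and Plxna4 at 4.49 ± 0.23 (adjusted p = 2.73e-09). The largest falls among genes of at least 10 CPM in WT were those of Dcc at -5.40 ± 0.33 (edgeR adjusted p = 1.77e-08) and Ntn1 at -3.96 ± 0.11 (adjusted p = 6.36e-12). All 3 Slits were higher than in WT, with Slit3 at 2.63 ± 0.09 (edgeR adjusted p = 3.83e-11). Efnb3 was below WT, at -0.92 ± 0.08 (edgeR adjusted p = 5.9e-07), as was Epha7 at -0.92 ± 0.11 (adjusted p = 1.97e-05), and Neo1 did not pass, at -0.05 ± 0.08 (adjusted p = 0.634). The call of Slit1 was lost without 1 library, with an adjusted p of 0.173 without T48h rescue b, 0.063 without WT a and 0.171 without WT b.

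The rescues were also compared with each other. Both were sampled at day 6, so the start of doxycycline and the time elapsed since then cannot be told apart. In T48h rescue against T12h rescue 24 of 65 genes were higher and 25 lower, where 24.9% of all loci were higher and 25.3% lower, or 50.2% in either direction. Unc5c at 5.82 ± 0.16 (edgeR adjusted p = 6.76e-12), Efna1 at 4.59 ± 0.16 (adjusted p = 5.71e-11), Plxna4 at 4.39 ± 0.22 (adjusted p = 2.58e-09) and Nrp2 at 3.59 ± 0.11 (adjusted p = 1.34e-11) were higher with late doxycycline. Ntn1 at -4.63 ± 0.11 (edgeR adjusted p = 1.57e-12), Dcc at -3.22 ± 0.32 (adjusted p = 2.5e-06) and Sema3c at -2.83 ± 0.22 (adjusted p = 1.6e-07) were lower. Efnb3 at -1.63 ± 0.08 (edgeR adjusted p = 1.82e-09), Ephb2 at -1.03 ± 0.07 (adjusted p = 8.27e-08) and Efna5 at -1.39 ± 0.09 (adjusted p = 4.29e-08) were lower with smaller changes. Epha7 had 35.4 and 37.2 CPM in the T48h rescue, against 36.5 and 36.1 CPM in the T12h rescue, and its difference did not pass.

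Other genes of guidance signalling were followed as a list of 72 partners, made up of 23 further ligands, receptors and adhesion molecules and 49 intracellular effectors. In KO against WT 14 were higher and 31 lower, where 31.7% of all loci were higher and 32.4% lower. Their median log2 fold change was -0.22, against 0.00 over all loci. In T12h rescue against KO 38 were higher and 13 lower, where 32.8% and 32.1% of all loci were, with a median of 0.29. In T48h rescue against KO 29 were higher and 26 lower, where 34.2% and 33.2% of all loci were, with a median of 0.10. Dpysl4, a CRMP protein that links semaphorin signals to microtubules, had 2.62 and 2.64 CPM in the KO, against 53.0 and 63.0 CPM in WT, a change of -4.46 ± 0.16 (edgeR adjusted p = 9.05e-11). Dpysl5, another CRMP, had 43.8 and 43.9 CPM in the KO, against 157.7 and 157.4 CPM in WT, a change of -1.85 ± 0.07 (edgeR adjusted p = 1.77e-10). Flrt2, an adhesion molecule that binds Unc5 receptors, had 13.97 and 12.8 CPM in the KO, against 49.8 and 50.5 CPM in WT (-1.90 ± 0.11, edgeR adjusted p = 5.67e-09). Mical2, of a family of actin-oxidising enzymes downstream of plexins, was among the 14 that were higher, with 71.3 and 73.3 CPM in the KO, against 7.13 and 7.09 CPM in WT, a change of 3.34 ± 0.13 (edgeR adjusted p = 2.22e-10).

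Partners also set the rescues apart. Nrcam, a neural adhesion molecule that pairs with neuropilins, had 4.25 and 4.98 CPM in the T48h rescue, against 194 and 207 CPM in the T12h rescue, a change of -5.44 ± 0.12 (edgeR adjusted p = 1.22e-12). Rgma, a ligand of Neo1, had 10.6 and 15.7 CPM in the T48h rescue, against 137 and 126 CPM in the T12h rescue, a change of -3.32 ± 0.14 (edgeR adjusted p = 4.01e-10). Pak3, a kinase effector of Rac and Cdc42 in neurons, had 4.66 and 3.11 CPM in the T48h rescue, against 69.5 and 71.9 CPM in the T12h rescue (-4.19 ± 0.20, edgeR adjusted p = 1.3e-09). In T48h rescue against KO, a different comparison, Mical1 was higher, at 2.82 ± 0.09 (edgeR adjusted p = 2.93e-11). It had 173 and 172 CPM in the T48h rescue and 24.5 and 24.5 CPM in the KO. Its difference between the rescues is not given here. In T12h rescue against WT 8 partners were higher and 5 lower, where 7.9% and 6.11% of all loci were. In T48h rescue against WT 23 were higher and 23 lower, where 23.9% and 23.4% of all loci were.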

How the data were processed

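RNA of 16 samples (4 groups, 2 duplicates, 2 technical runs) was used. The build was mm10 and the tools Cufflinks 2.2.1, deepTools, TopHat2 2.1.1 and SAMtools 1.5, per the submitters' processing notes. The gene annotation and strand setting were not given in the sources used here. The deposited count table gives, per the file headers, an estimated count for each locus, and the values show 1 multiplying factor per column (1 fragment was worth 0.63 to 1.29, and 94% to 95% of values were then whole within 0.02 fragments). This factor was divided out. The columns name neither duplicate nor run, so technical columns were paired within a group by a chi-square of their counts (mean per degree of freedom 1.6 to 1.83 within pairs, 9.09 to 16.5 otherwise), summed and rounded to whole numbers. The other deposited table gives FPKM, per the file headers, and was used to compare levels between genes and in alternatives as log2(FPKM + 1) or log2(FPKM + 0.1), which understates changes of low genes. The 96 companion columns were not used, apart from the status of 8 loci left out. The 5143 loci without a name, 3.15% to 6.18% of counts, were left out. Of the 67 guidance genes, 12 have loci that overlap other named loci, whose counts may mix. They are Epha1, Epha6, Epha10, Efna2, Plxna4, Nrp2, Slit2, Slit3, Robo2, Ntn4, Ntn5 and Unc5a.

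All 4 groups were fitted together in edgeR 4.0.16 (R 4.3.3) with TMM, filterByExpr and the quasi-likelihood F-test, with group as the only term (4 residual degrees of freedom, common BCV 12.6%). Benjamini-Hochberg adjustment ran over all 16130 loci tested, with calls at an adjusted p under 0.05. The script was tested on simulated data. Alternatives were RLE and upper-quartile scaling, no filter, DESeq2 1.42.0, only the 2 groups compared, 1 technical column, limma 3.58.1 on FPKM, each library left out and, added after the data were seen, a replicate block on the column numbers. The text names up to 4 genes per family and comparison with the smallest adjusted p, where the higher group had at least 5 CPM, their ligand or receptor partners, and genes not tested, alone in their family in not passing, or on chromosome 8; of the partner list, up to 4 per comparison. The guidance genes, the lists and this rule were chosen with earlier results of these data known. Promoters are RefSeq sequences on GRCm38.p6, matched by symbol for 57 of 67 genes.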

Additional observations from a re-analysis of the deposited data

Results flagged for a closer look

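For 10 guidance genes the T48h rescue and the T12h rescue were called in opposite directions against the KO. For each, the difference between the rescues itself passed the edgeR test. This pattern was not counted over all loci, so it cannot be called particular to guidance genes. Of all loci, 64.8% were called in T12h rescue against KO, 67.3% in T48h rescue against KO and 50.2% between the rescues. The differences are log2 values of T48h rescue over T12h rescue. Efna1 had 4.59 and Efnb1 2.22, both ephrins that were higher in the T48h rescue and lower in the T12h rescue than in the KO. Nrp2, at 3.59, Unc5b, at 2.06, and Robo1, at 0.92, had the same directions. Ntn1, at -4.63, Dcc, at -3.22, Sema3c, at -2.83, Sema4f, at -3.95, and Sema6a, at -1.42, were lower in the T48h rescue and higher in the T12h rescue than in the KO. For Nrp2, Robo1, Dcc and Sema4f the call of T48h rescue against KO was lost when 1 library was left out. For Sema4f, at 0.218 and 0 CPM in the T48h rescue and 1.57 and 1.76 CPM in the T12h rescue, the call of T12h rescue against KO was lost as well. Its difference between the rescues was -2.93 without T48h rescue b and -9.24 without T48h rescue a, and the second is no measured size, since the library kept has 0 counts.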

How the results depend on the processing

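Over the 6 comparisons, 282 values of single guidance genes were called, and 235 of them kept their call and direction under all 17 alternatives. Of 4791 alternative values, 229 no longer passed and 0 reversed. Every count of guidance genes or partners stayed within 1.5 times its main value except in T12h rescue against WT. There, 7 genes were higher in the main fit, 4 with limma on log2(FPKM + 1) and 4 to 7 with 1 library left out. The 11 lower genes became 6 with limma on log2(FPKM + 0.1) and 7 to 13 with 1 library left out. The 13 partners called became 6 with either limma setting and 4 to 12 with 1 library left out. The cause was not tested. Upper-quartile scaling moved the called genes by a median log2 of -0.14 in T48h rescue against KO and -0.12 in T48h rescue against WT. Calls lost without 1 library numbered 9 of 53 in KO against WT, 7 of 55 in T12h rescue against KO, 7 of 54 in T48h rescue against KO, 10 of 53 in T48h rescue against WT and 5 of 49 in T48h rescue against T12h rescue. Low genes, such as Epha6 and Robo4, rest on few counts. The columns carry numbers that match neither duplicate nor run in the labels. A replicate block on them (columns 1 and 2 against 3 and 4), chosen after seeing the data, gave 12 lower genes in T12h rescue against WT and ended 5 of 282 calls. Libraries so matched did not deviate together over all tested loci (r from -0.0414 to 0.0432 over the 6 pairs of groups). A deviation shared by a part of the loci could be missed by this value.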

Other observations

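Joint loci outside the naming rule gave further values. The locus of Efnb2, a ligand of arterial endothelium, is joined with Arglu1 on chromosome 8 and had 417 and 431 CPM in the T48h rescue, 837 and 766 CPM in the T12h rescue, 479 and 420.3 CPM in the KO, and 566 and 578 CPM in WT. It was higher in T12h rescue against KO by 0.83 ± 0.08 (edgeR adjusted p = 5.77e-07) and lower in KO against WT at -0.35 ± 0.08 (adjusted p = 0.00132). The locus of Ntn3 is joined with Tbc1d24 on chromosome 17 and had 49.4 and 52.8 CPM in the T48h rescue, 70.8 and 63.4 CPM in the T12h rescue, 101 and 98.6 CPM in the KO, and 43.5 and 50.5 CPM in WT. In neither locus can the counts of the joined genes be separated.

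Some guidance genes lie within 500000 bases of each other. Ephb2 and Epha8 are 93483 bases apart on chromosome 4, Sema3b and Sema3f 72260 bases apart on chromosome 9, and Sema3a and Sema3e 421678 bases apart on chromosome 5. In KO against WT, Sema3b had 1.41 ± 0.23 (edgeR adjusted p = 0.000112) and Sema3f -1.48 ± 0.16 (adjusted p = 3.81e-06), and Sema3a had -1.99 ± 0.23 where Sema3e had 4.23 ± 0.28.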
